A study of Mus musculus with 6 samples.

Results

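The metalloproteinases and their inhibitors made up 190 of the 58172 regions of open chromatin in mouse lung endothelial cells, at 50 of the 12574 genes with a region. Members were taken by name, as genes whose symbol starts with Adam, Adamts, Mmp or Timp. A region went to the first gene that the deposited table names for it or, where the table names none, to the protein-coding gene of the table with the nearest transcription start site within 100 kb. The table itself named the member gene for 71 regions, and 119 were placed by distance. An ADAM gene was given 54 regions at 14 genes, an ADAMTS protease gene 67 regions at 15 genes, an ADAMTS-like gene 19 regions at 5 genes, an MMP gene 31 regions at 13 genes and a TIMP gene 19 regions at 3 genes. Of 85 mouse genes in RefSeq that match the name rule, 35 had no region by this rule, among them Timp4, Adamts13, Adam28, Adam33, Mmp3 and Mmp12. Each of the 190 regions passed the filter on low values and was tested.

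The libraries were made by ATAC-seq from 50000 cells each: the transposase Tn5 cuts and tags DNA where chromatin is open, so a higher value means more accessible DNA. The 3 CSE-KO libraries are labelled as Cre-positive knockouts of cystathionine gamma-lyase (CSE, encoded by Cth), the enzyme that makes cysteine from cystathionine. The 3 WT libraries are labelled as Cre-negative, so the loss of the enzyme and the presence of Cre cannot be told apart. The labels do not say whether the enzyme is missing from the whole animal or from some cells only. The sources used here give neither the driver of Cre nor the age of the mice. The labels do not say that the libraries came from separate animals, and p-values then measure only the spread between these samples.

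Metalloproteinases cut proteins with the help of a zinc ion in the active site. ADAM proteases sit in the cell membrane and release the outer part of other membrane proteins, ADAMTS proteases are secreted and cut proteoglycans and procollagens, and matrix metalloproteinases (MMPs) cut collagens, laminins and many other matrix proteins. The tissue inhibitors of metalloproteinases (TIMPs) block these enzymes by binding to the active site, and in vessels the balance of both is known for its part in sprouting, in the turnover of the basement membrane and in the release of receptors and adhesion proteins from the endothelial surface.

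Around these genes, distal regions changed far more often than promoters, and those that changed were mostly lower in CSE-KO. Of the 190 regions, 39 passed the test (limma on log2(value + 1), Benjamini-Hochberg adjusted p under 0.05 over 58129 tested regions), 9 higher and 30 lower in CSE-KO, which is 20.5% of the members against 17.3% of all tested regions (7.7% higher and 9.6% lower). Promoter regions have a deposited distance of at most 1 kb to a start site, and all others are distal. Among 45 promoter regions, 1 passed, the lower region of Mmp2, which is 2.22% against 8.52% of all promoter regions (5.23% higher and 3.29% lower). Among 145 distal regions, 9 were higher and 29 lower, which is 26.2% against 19.9% of all distal regions (8.43% higher and 11.5% lower). The median log2 change was 0.12 over the member promoters and -0.18 over the member distal regions, against 0.11 and -0.06 over all tested promoter and distal regions. The 2 groups of libraries did not overlap at 30 higher and 53 lower member regions, where 39.5% of all regions did not overlap (19.0% higher and 20.5% lower).

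By gene, 13 of the 50 had lower regions only among those that passed, 4 had higher regions only, 3 had both and 30 had none. Over all 12574 genes, 1880 had lower regions only, 1696 higher regions only, 553 both and 8445 none. The 3 with both were Adam19, Adamtsl4 and Timp3. Of 36 genes with both a promoter and a distal region, the promoter change lay above the median distal change in 22 and below it in 14. This split was not counted over all genes, so it cannot be called a trait of the members. Over all tested regions, the median log2 change was also higher at promoters (0.11) than at distal regions (-0.06). Lower calls lay at distal regions of ADAM genes (11 of 43), ADAMTS genes (11 of 49), ADAMTS-like genes (2 of 15), MMP genes (1 of 22) and TIMP genes (4 of 16). Higher calls numbered 4, 0, 1, 2 and 2 in the same order of families. At an unadjusted p under 0.05 in the same limma fit the balance was closer, with 30 members higher and 43 lower, against 9473 higher and 10426 lower over all 58129 regions. Of these members, 7 promoters were higher and 1 was lower, against 2128 and 1036 of all 13246 promoter regions.

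**Figure D1:**
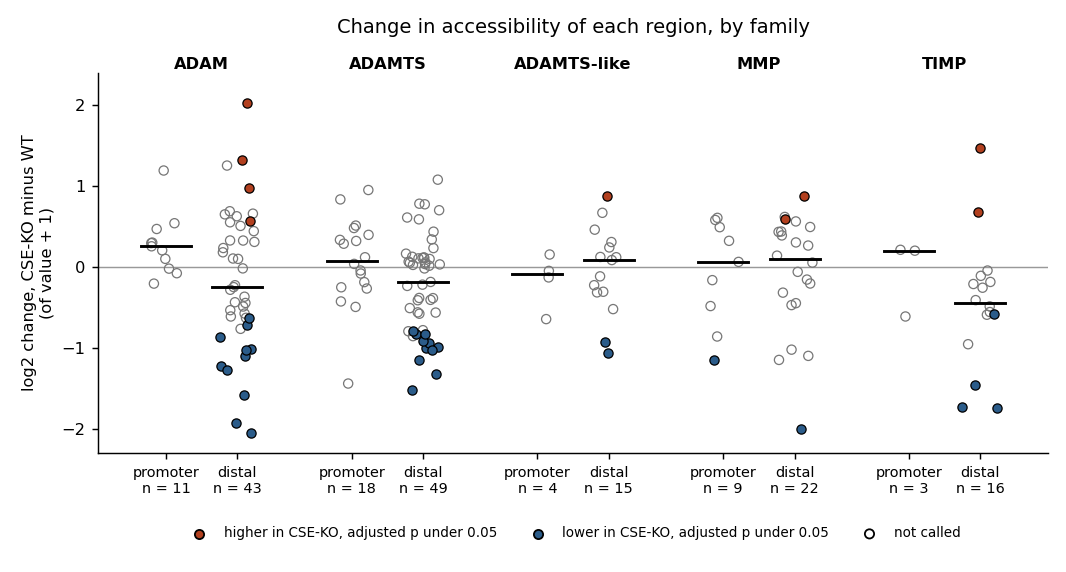
Change in accessibility of each of the 190 regions, as the log2 difference of value + 1 between CSE-KO and WT (vertical axis), by family and by promoter or distal place (horizontal axis); points are regions, filled where adjusted p was under 0.05, and bars are medians. The filled points are distal except for 1 MMP promoter, and no ADAMTS region is filled above 0.

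Summed over the 145 distal regions, the values were 9074, 8706 and 9032 in the CSE-KO libraries, against 10464, 10503 and 10159 in the WT libraries. Every CSE-KO sum lay below every WT sum, and the CSE-KO mean was 86.1% of the WT mean, against 94.1% for all distal regions without the few that hold a value over 10000. The sums over all these distal regions did not overlap either, with 2864777, 2824438 and 2827637 in CSE-KO, against 3068952, 3033583 and 2948277 in WT. Sums without overlap are thus no trait of the members. The 45 promoters summed to 4419, 4477 and 4871 in CSE-KO, against 4207, 4228 and 4552 in WT, which is 106% for the members and 105.9% for all promoters. ADAM distal regions summed to 2729, 2547 and 2640 in CSE-KO, against 3273, 3355 and 3212 in WT. ADAMTS distal regions summed to 3276, 3220 and 3237 in CSE-KO, against 3856, 3771 and 3663 in WT. In both families the sums of the groups did not overlap, as in the ADAMTS-like and TIMP families, while the MMP distal sums were 1035, 914 and 976 in CSE-KO and 932, 926 and 903 in WT and overlapped. These sums carry no test. In libraries made from many cells, a lower value cannot tell fewer cells with an open region from a region that is less open in each cell.

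**Figure D2:**
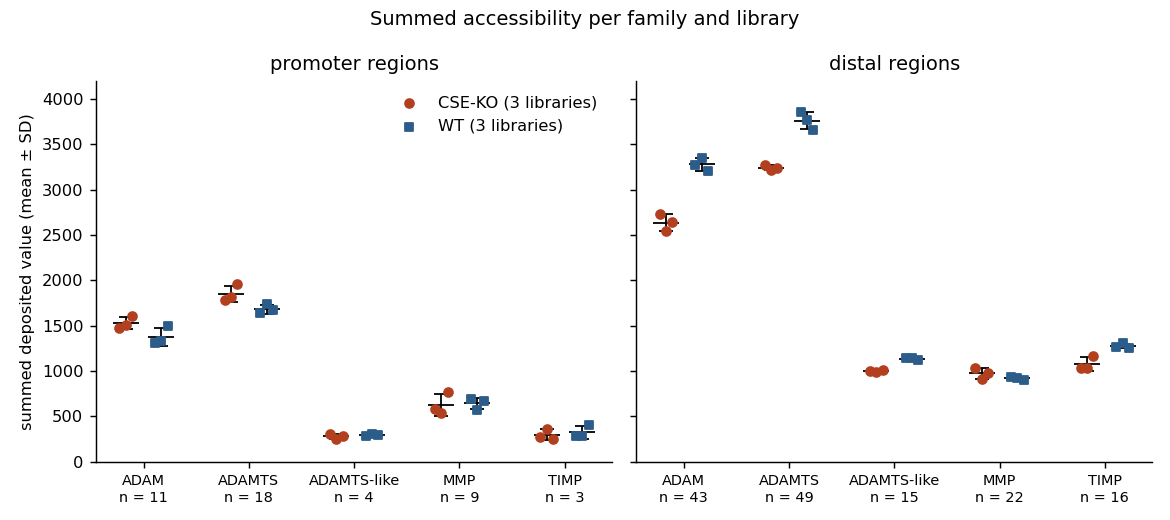
Summed deposited values (vertical axis) of the promoter regions and of the distal regions of each family (horizontal axis), with a point for each library and bars for mean ± SD of 3 libraries. The distal sums of the ADAM and ADAMTS families are lower in each CSE-KO library than in each WT library, and the promoter sums of all families but ADAMTS overlap.

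The calls changed with the way regions are given to genes and with the libraries kept, most when a WT library was left out. Among the 26 distal regions for which the deposited table itself names the gene, 3 were higher and 2 lower, and among the 119 placed by distance, 6 were higher and 27 lower. When regions were instead taken by lying inside the RefSeq span of a gene of these families, an alternative chosen after seeing the data, 14 of 175 were higher and 19 lower, and 23 of these 33 were also among the 39. Nearness to a start site is no evidence that a region controls it. The member calls fell to 13, 15 and 15 without WT replicate 1, 2 or 3, and to 36, 34 and 29 without CSE-KO replicate 1, 2 or 3, while the calls over all regions fell to between 3493 and 3644 without a WT library and to between 8417 and 8918 without a CSE-KO library, against 10057 with all 6. Of the 39 member calls, 11 held in each of the 6 fits that left out a library. With the replicate number as a block, 17 of the 39 were lost. Losses under this block are not listed by region below.

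**Figure D3:**
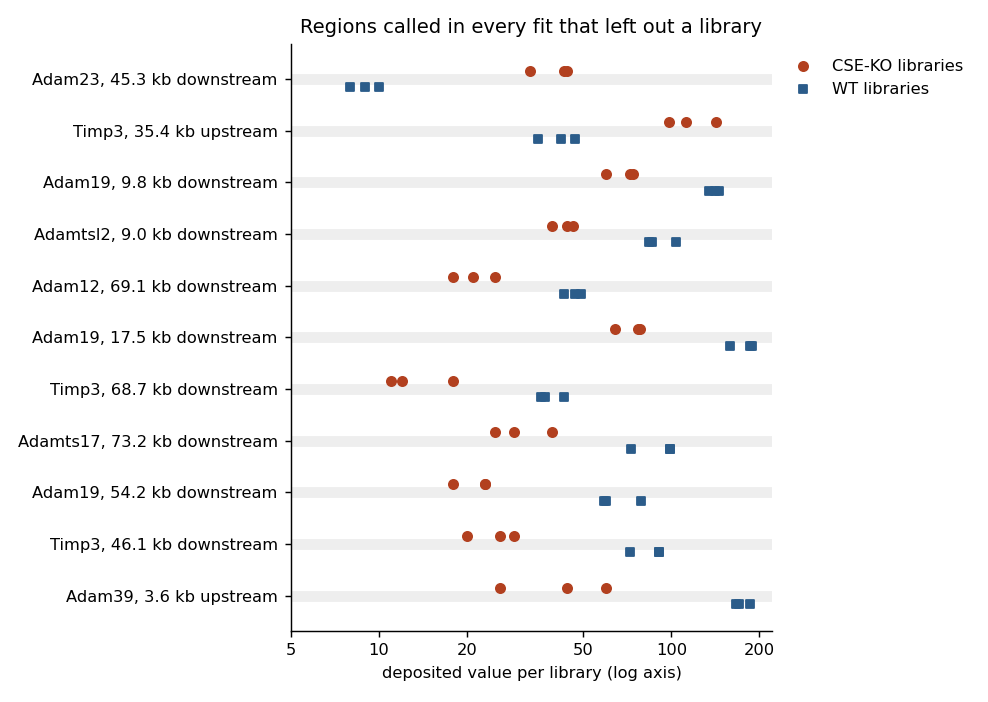
Deposited value in each library (horizontal axis, log scale) at the 11 member regions called in each of the 6 fits that left out a library; circles are CSE-KO and squares WT libraries. The regions of Adam23 and Timp3 at 45.3 kb and 35.4 kb are higher in CSE-KO, the other 9 are lower, and the groups do not overlap at any of the 11.

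The promoters of the main sheddases did not pass the test. Adam17, the sheddase of tumour necrosis factor and of ligands of the epidermal growth factor receptor, had 274, 239 and 323 at its promoter in CSE-KO libraries, against 265, 271 and 306 in WT libraries, a log2 change of -0.02 with a 95% interval of -0.44 to 0.41. Adam10, the main sheddase of Notch receptors, had 302, 372 and 310 in CSE-KO, against 246, 230 and 331 in WT. Adam9 had the highest promoter of the family, with 477, 472 and 504 in CSE-KO and 389, 443 and 427 in WT. The groups overlapped at Adam17 and Adam10, and all 3 CSE-KO values lay above the WT values at Adam9 (log2 change 0.21, adjusted p = 0.38). Adam15, which carries an integrin-binding motif, had 118, 152 and 164 in CSE-KO and 135, 140 and 182 in WT. Adam3, an ADAM of sperm, had 74, 90 and 110 in CSE-KO, against 109, 101 and 102 in WT. No ADAM promoter by the deposited start sites passed in the limma fit, and 1 of the 11 was higher at an unadjusted p under 0.05. Over these 11 the log2 changes ran from -0.20 to 1.19, with a median of 0.26. The region of Adam12 at -45 bp from its RefSeq start site is not among them. It is counted as distal here and was called lower (adjusted p = 0.026), as described below.

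The promoter windows of Adam17 and Adam19 are shown because they stand for ADAM genes whose promoters were open and did not pass the test, without (Adam17) and with (Adam19) called distal regions further along the gene. Sequences are from RefSeq (GRCm38.p6), from 250 bases before to 50 bases after a start site, 5′ to 3′ on the strand of the gene. Capitals mark matches on either strand to the letters TGANTCA (AP-1), CCGGAA (ETS) or GGGCGG (GC box). In the Adam17 window, all 300 bases lay in a region of the table. In the Adam19 window, 121 did.
Adam17 promoter, chr12:21373583-21373882, minus strand: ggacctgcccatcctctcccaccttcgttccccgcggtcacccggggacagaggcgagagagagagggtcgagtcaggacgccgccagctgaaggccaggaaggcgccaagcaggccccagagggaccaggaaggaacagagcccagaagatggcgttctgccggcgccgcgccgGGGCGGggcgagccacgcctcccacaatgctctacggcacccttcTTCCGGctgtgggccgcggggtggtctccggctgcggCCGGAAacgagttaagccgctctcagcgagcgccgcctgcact
Adam19 promoter, chr11:46055734-46056033, plus strand: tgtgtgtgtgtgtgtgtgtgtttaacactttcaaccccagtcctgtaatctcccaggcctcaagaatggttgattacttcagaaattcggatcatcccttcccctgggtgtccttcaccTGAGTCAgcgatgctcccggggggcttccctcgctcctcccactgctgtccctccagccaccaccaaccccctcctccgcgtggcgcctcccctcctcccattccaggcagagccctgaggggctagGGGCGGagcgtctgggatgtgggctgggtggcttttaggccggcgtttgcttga
The Adam17 window holds 2 ETS matches and 1 GC box, and the Adam19 window 1 AP-1 match and 1 GC box. Windows for 30 of the 50 members, 32 in all, were in the table. The AP-1 letters were in 2 of these (6.25%), the ETS letters in 3 (9.38%) and the GC box in 23 (71.9%), against 7.81%, 14.9% and 35.7% of 32851 windows of all genes. The member windows belong to genes with an open region, while the windows of all genes, 27025 of them, include genes without one. The shares therefore compare unlike sets. A match describes the letters and is not a binding site.

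Adam12, which codes for meltrin alpha, a protease with a secreted and a membrane form, had 6 calls, a number that only Timp3 matched among the members. Of its 11 regions, 6 were lower and none was higher at this threshold, with a median log2 change of -0.71. At the region nearest to its start site in RefSeq (chr7:134224681-134225603, mm10), the values were 165, 185 and 157 in CSE-KO libraries, against 292, 266 and 271 in WT libraries. The region was 1.63-fold lower, with every CSE-KO value below every WT value (log2 change -0.71 ± 0.16 SE, adjusted p = 0.026). Its centre lies at -45 bp from that start site but 7.0 kb from the start site in the deposited table, so it is counted as distal here. A second region, 4.19 kb from the deposited start site and upstream of the RefSeq one, had 11, 28 and 30 in CSE-KO, against 75, 82 and 92 in WT, which is 3.79-fold lower (adjusted p = 0.016).

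Inside the Adam12 gene, the region at 23.9 kb had 38, 29 and 46 in CSE-KO, against 86, 83 and 94 in WT (2.33-fold lower, adjusted p = 0.011). The region at 69.1 kb (chr7:134162845-134163270) had 21, 18 and 25 in CSE-KO, against 47, 49 and 43 in WT (2.13-fold lower, adjusted p = 0.011). Upstream, the region at 10.8 kb had 47, 29 and 49 in CSE-KO, against 80, 84 and 85 in WT. The groups stood apart at each of these. The region at 69.4 kb upstream, inside the gene D7Ertd443e, had 16, 14 and 15 in CSE-KO, against 32, 29 and 24 in WT (1.82-fold lower, adjusted p = 0.019). The 2 regions of Adam12 with the highest values among those that did not pass were 29.3 kb upstream, with 340, 303 and 271 in CSE-KO and 398, 384 and 327 in WT, and 5.09 kb upstream, with 186, 195 and 202 in CSE-KO and 143, 156 and 113 in WT. Only the call at 69.1 kb held in all 6 fits that left out a library. Those at 10.8 kb upstream, 4.19 kb and 7.0 kb ended without WT replicate 1, 2 or 3, that at 7.0 kb also without CSE-KO replicate 3, that at 69.4 kb without WT replicate 1 or 2 and that at 23.9 kb without WT replicate 3 (adjusted p from 0.053 to 0.097). The call at 69.4 kb was also lost under limma with trend and robust (adjusted p = 0.064).

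Adam19, which codes for meltrin beta, a sheddase of neuregulins with a part in heart development, had regions in both directions along the gene. Its promoter had 118, 101 and 75 in CSE-KO libraries, against 87, 83 and 72 in WT libraries, with overlapping groups. Just inside the gene, the region at 1.59 kb had 34, 43 and 51 in CSE-KO, against 10, 20 and 21 in WT, 2.51-fold higher (adjusted p = 0.029). The region at 24.5 kb had 51, 74 and 62 in CSE-KO, against 29, 37 and 27 in WT, 1.97-fold higher (adjusted p = 0.023). At both, all CSE-KO values lay above the WT values. Between and beyond them, 3 regions were lower. At 9.76 kb (chr11:46065486-46066014) the values were 72, 60 and 74 in CSE-KO, against 145, 141 and 134 in WT, 2.03-fold lower (adjusted p = 0.0097). At 17.5 kb (chr11:46073170-46073755) they were 78, 77 and 64 in CSE-KO, against 159, 189 and 186 in WT, 2.42-fold lower (adjusted p = 0.0064). At 54.2 kb (chr11:46110005-46110469) they were 18, 23 and 23 in CSE-KO, against 79, 59 and 60 in WT, 2.99-fold lower (adjusted p = 0.0052). The 3 lower calls held in all 6 fits that left out a library. The higher call at 1.59 kb was lost when any WT replicate or CSE-KO replicate 2 or 3 was left out (adjusted p from 0.058 to 0.068), and that at 24.5 kb without WT replicate 1 or 3 (adjusted p = 0.085 and 0.088).

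**Figure D4:**
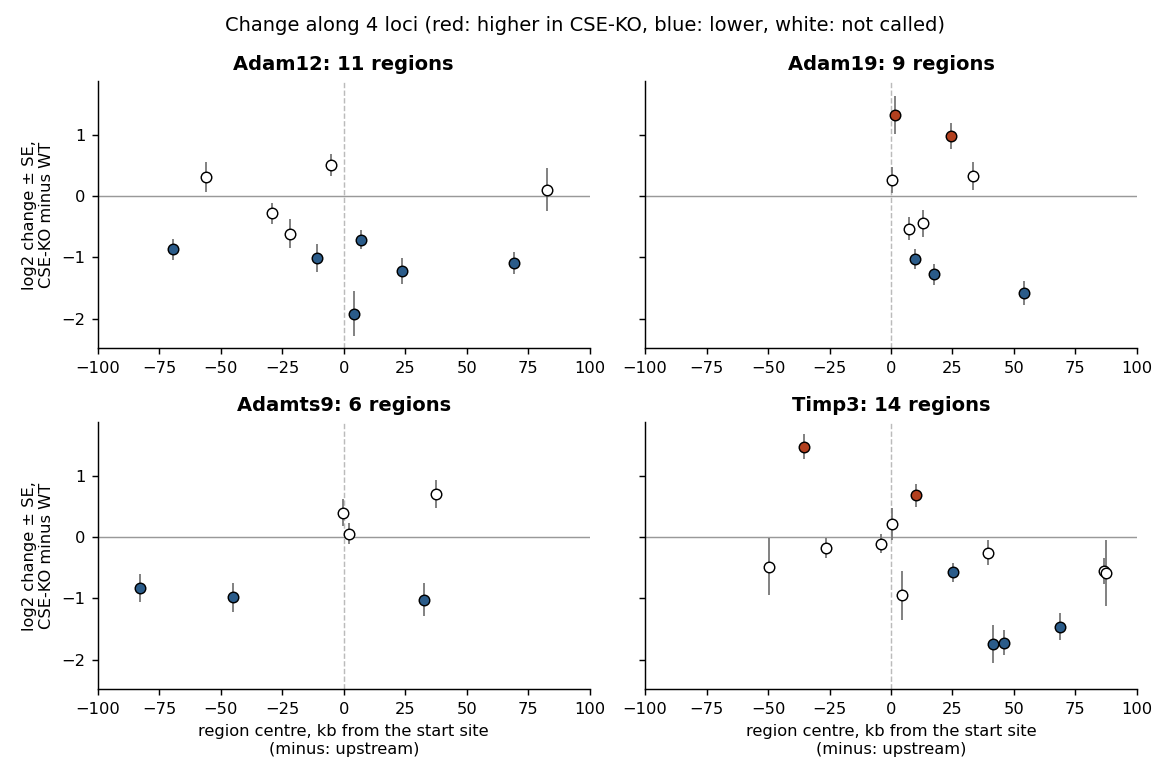
Log2 change ± SE between CSE-KO and WT (vertical axis) of each region of Adam12, Adam19, Adamts9 and Timp3 against the distance of its centre from the deposited start site in kb (horizontal axis, minus for upstream); red is higher and blue lower in CSE-KO at adjusted p under 0.05, white did not pass. Adam12 has 6 blue points and no red, and Adam19 and Timp3 have both colours, with the blue points of Timp3 between 25.3 kb and 68.7 kb downstream.

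Adam22, Adam23 and Adam11 code for ADAM proteins without protease activity that bind LGI proteins at synapses. The region of Adam23 at 45.3 kb inside the gene (chr1:63491140-63491315) had 33, 43 and 44 in CSE-KO libraries, against 10, 9 and 8 in WT libraries. This was the largest rise among the 190 regions, 4.08-fold, with the groups far apart (log2 change 2.03 ± 0.19 SE, adjusted p = 0.0028). Adam22 had 127, 126 and 138 at 10.7 kb inside the gene in CSE-KO, against 181, 209 and 219 in WT, 1.55-fold lower (adjusted p = 0.039). Adam11 had no call, and its strongest distal region had 162, 139 and 177 in CSE-KO and 185, 211 and 219 in WT.

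The largest drop among the 190 regions lay 3.65 kb upstream of Adam39, an ADAM gene of testis (chr8:40818983-40819698). It had 60, 26 and 44 in CSE-KO, against 185, 170 and 166 in WT, 4.15-fold lower with a log2 change of -2.05 ± 0.30 SE (adjusted p = 0.0075). It is the only region of Adam39. A region 27.3 kb upstream of Adam9, inside the gene Plekha2, had 47, 49 and 44 in CSE-KO, against 32, 30 and 31 in WT, 1.49-fold higher (adjusted p = 0.042). The calls of Adam23 and Adam39 held in all 6 fits that left out a library. Those of Adam22 and Adam9 were lost when any single library was left out (adjusted p from 0.056 to 0.14), and that of Adam9 also under cyclic loess scaling and under limma with trend and robust (adjusted p = 0.053 and 0.11).

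Of the ADAMTS proteases, none had a higher call at a member region in the limma fit used for the calls. At least 1 lower call, all distal, was at 7 of the 15 genes. Regions of Adamts6 and Adamts15 just missed the threshold as higher (adjusted p = 0.051 and 0.053). Both passed under some other settings with all 6 libraries, as given below. Regions inside Adamts6 and Adamts16 that the rule does not give to these genes were also called higher. At an unadjusted p under 0.05, 10 of the 67 regions were higher and 15 lower. The 18 promoters ran from a log2 change of -1.44 to 0.95 with a median of 0.08. Adamts7, a protease of cartilage oligomeric matrix protein, had the highest promoter, with 314, 280 and 308 in CSE-KO libraries and 249, 224 and 247 in WT libraries. Its groups did not overlap, and the difference did not pass (log2 change 0.32, adjusted p = 0.19). Adamts5, an aggrecanase, had 211, 233 and 212 at its promoter in CSE-KO, against 228, 270 and 249 in WT. Adamts17 had 201, 199 and 207 in CSE-KO, against 220, 206 and 199 in WT. Adamts4, the other main aggrecanase, had 85, 87 and 102 in CSE-KO and 120, 134 and 79 in WT. The groups overlapped at these 3 promoters.

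Adamts1, which cuts versican and is known to restrain vessel growth, had 2 promoter regions that did not pass and 1 of 6 distal regions that did. The promoter region over its start site had 126, 178 and 177 in CSE-KO, against 130, 163 and 145 in WT. The other, at 0.866 kb, had 116, 127 and 126 in CSE-KO, against 108, 90 and 104 in WT, without overlap (log2 change 0.29, adjusted p = 0.25). The region 1.91 kb inside the gene had 304, 343 and 407 in CSE-KO, against 278, 290 and 322 in WT. The called region, 50.7 kb beyond the start site and past the end of the gene, had 62, 63 and 33 in CSE-KO, against 106, 99 and 137 in WT, 2.21-fold lower (adjusted p = 0.037). Adamts9, which also cuts versican, had 3 lower calls among 6 regions and a median log2 change of -0.38. At 32.7 kb inside the gene the values were 31, 21 and 44 in CSE-KO, against 63, 62 and 65 in WT, 2.03-fold lower (adjusted p = 0.041). At 45.0 kb upstream they were 31, 55 and 34 in CSE-KO, against 78, 76 and 79 in WT, 1.98-fold lower (adjusted p = 0.032). At 82.9 kb upstream they were 20, 35 and 31 in CSE-KO, against 49, 49 and 53 in WT, 1.77-fold lower (adjusted p = 0.0496). In each of the 3, the WT libraries lay close together and the CSE-KO libraries spread below them. The strongest region of Adamts9, 1.95 kb inside the gene, had 258, 251 and 272 in CSE-KO and 291, 233 and 230 in WT and did not pass. The Adamts1 call was lost when any WT replicate was left out (adjusted p from 0.086 to 0.12). Those of Adamts9 were lost when any WT replicate or CSE-KO replicate 1 was left out, the upstream ones also without CSE-KO replicate 3 and that at 32.7 kb also without CSE-KO replicate 2 (adjusted p from 0.0597 to 0.145), and that at 82.9 kb with a pseudocount of 0.5 (adjusted p = 0.052).

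Adamts16 and Adamts17 each had 2 lower calls among their member regions, all inside the gene. Adamts17, whose product binds fibrillin fibres, had 25, 29 and 39 at 73.2 kb (chr7:66912573-66913270) in CSE-KO libraries, against 99, 99 and 73 in WT libraries, 2.87-fold lower (log2 change -1.52 ± 0.23 SE, adjusted p = 0.0081). This was the largest drop of the ADAMTS family. At 93.7 kb Adamts17 had 82, 66 and 48 in CSE-KO, against 123, 119 and 121 in WT, 1.88-fold lower (adjusted p = 0.033). Adamts16 had 59, 60 and 74 at 57.6 kb in CSE-KO, against 121, 136 and 131 in WT, 2.00-fold lower (adjusted p = 0.011). The groups were well apart at this region. At 62.5 kb Adamts16 had 59, 31 and 38 in CSE-KO, against 81, 82 and 77 in WT, 1.92-fold lower (adjusted p = 0.042). The call of Adamts17 at 73.2 kb held in all 6 fits that left out a library. That of Adamts16 at 57.6 kb was lost when WT replicate 2 or 3 was left out (adjusted p = 0.053 and 0.052), and the other 2 when any WT replicate or CSE-KO replicate 2 or 3 was left out (adjusted p from 0.051 to 0.12). A further region inside Adamts16 goes by the rule to Ice1 and is no member. It had 38, 25 and 38 in CSE-KO, against 12, 16 and 13 in WT, and was called higher (log2 change 1.23, adjusted p = 0.014). That call was lost without WT replicate 1 or 3 (adjusted p = 0.061 and 0.06).

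Adamts3, which cuts procollagen and activates the lymphatic growth factor VEGF-C, had 116, 109 and 94 at 39.2 kb inside the gene in CSE-KO, against 171, 188 and 191 in WT, 1.72-fold lower (adjusted p = 0.022). Adamts12 had 44, 47 and 46 at 20.5 kb inside the gene in CSE-KO, against 77, 90 and 79 in WT, 1.78-fold lower (adjusted p = 0.016). A region placed with Adamts10, another fibrillin-binding protease, lies 42.2 kb from its start site inside the gene Myo1f and had 10, 12 and 7 in CSE-KO, against 28, 30 and 19 in WT, 2.50-fold lower (adjusted p = 0.017). In each of the 3, every CSE-KO value lay below every WT value. The calls of Adamts3 and Adamts12 ended without WT replicate 1, 2 or 3 (adjusted p from 0.054 to 0.085) and that of Adamts10 when WT replicate 1 or 2 was left out (adjusted p = 0.069 and 0.068). Among regions that did not pass, Adamts7 had 157, 256 and 225 at 35.5 kb in CSE-KO and 319, 300 and 303 in WT (adjusted p = 0.12).

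The ADAMTS-like proteins lack the protease domain and bind microfibrils of the matrix. Adamtsl2, whose product binds fibrillin and latent TGF-beta binding protein, had 39, 44 and 46 at 9.0 kb inside the gene (chr2:27088138-27088620) in CSE-KO libraries, against 104, 86 and 84 in WT libraries. The groups were far apart and the region was 2.09-fold lower (log2 change -1.07 ± 0.17 SE, adjusted p = 0.0098). Adamtsl4, a fibrillin-binding protein linked in humans to a displaced lens, had calls in both directions upstream of its start site. At 14.4 kb upstream it had 100, 89 and 102 in CSE-KO, against 55, 53 and 49 in WT, 1.84-fold higher (adjusted p = 0.013). At 6.07 kb upstream it had 172, 139 and 215 in CSE-KO, against 347, 318 and 323 in WT, 1.90-fold lower (adjusted p = 0.024). Both lie between genes, and neither pair of groups overlapped. The Adamtsl4 promoter had 196, 201 and 203 in CSE-KO and 196, 217 and 207 in WT, and the Adamtsl2 promoter had 60, 18 and 25 in CSE-KO and 49, 43 and 51 in WT. Neither passed with all 6 libraries, and the Adamtsl2 promoter passed as lower without CSE-KO replicate 1 (log2 change -1.13, adjusted p = 0.023). The promoters of Adamtsl1 and Adamtsl3 were weaker, with 20, 15 and 5 at Adamtsl1 in CSE-KO, against 12, 7 and 13 in WT, and 31, 15 and 51 at Adamtsl3 in CSE-KO, against 32, 34 and 29 in WT. Of the distal regions that did not pass, the strongest lay 12.4 kb from the start site of Adamtsl4, with 266, 288 and 290 in CSE-KO and 251, 275 and 249 in WT, which overlapped. Adamtsl5 had 69, 72 and 66 at 2.05 kb upstream in CSE-KO, against 84, 79 and 79 in WT, without overlap (log2 change -0.22, adjusted p = 0.34). Adamtsl3 had 74, 37 and 54 at 59.7 kb upstream, inside the gene Sh3gl3, in CSE-KO, and 42, 48 and 38 in WT, with overlap. The Adamtsl2 call held in all 6 fits that left out a library, and both Adamtsl4 calls ended without WT replicate 1, 2 or 3 (adjusted p from 0.0504 to 0.088).

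Among the MMPs, the gelatinases Mmp2 and Mmp9 had calls in opposite directions, at 1 region each. Mmp2, gelatinase A, had 23, 21 and 31 at its promoter (chr8:92827286-92827699) in CSE-KO libraries, against 63, 45 and 62 in WT libraries. All CSE-KO values lay below the WT values, 25 ± 5.29 on average in CSE-KO and 56.7 ± 10.1 in WT (SD, n = 3 each), and the region was 2.22-fold lower (log2 change -1.15 ± 0.22 SE, adjusted p = 0.017). Mmp9, gelatinase B, had 41, 38 and 33 at 1.88 kb upstream in CSE-KO, against 26, 24 and 23 in WT, 1.51-fold higher (adjusted p = 0.049). The other member region of Mmp2, 9.0 kb upstream, had 62, 57 and 66 in CSE-KO, against 46, 60 and 48 in WT (adjusted p = 0.33). Stronger regions inside both genes go by the rule to other genes and did not pass. That in Mmp2, given to Lpcat2, had 327, 297 and 277 in CSE-KO and 300, 238 and 257 in WT (adjusted p = 0.49). That in Mmp9, given to Slc12a5, had 44, 67 and 28 in CSE-KO and 31, 35 and 43 in WT (adjusted p = 0.59). Mmp27 had 91, 63 and 61 at 1.58 kb inside the gene in CSE-KO, against 30, 38 and 47 in WT, 1.85-fold higher (adjusted p = 0.047). The call of Mmp2 was lost when WT replicate 1 or 3 was left out (adjusted p = 0.069 each). That of Mmp9 ended without WT replicate 1, 2 or 3 and without CSE-KO replicate 1 or 2, that of Mmp27 when any single library was left out (adjusted p from 0.059 to 0.15), and that of Mmp9 also with a pseudocount of 5, under cyclic loess scaling and under limma with trend and robust (adjusted p = 0.054, 0.06 and 0.13).

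The membrane-type MMPs, which cut matrix at the cell surface, had 1 call. Mmp15 had 29, 8 and 18 at 34 kb past its start site, beyond the gene (chr8:95386106-95386488), in CSE-KO, against 68, 71 and 65 in WT, 4.00-fold lower (log2 change -2.0 ± 0.41 SE, adjusted p = 0.019). It was lost when any WT replicate was left out (adjusted p from 0.066 to 0.07). The Mmp15 promoter had 116, 34 and 115 in CSE-KO, against 123, 126 and 178 in WT, without overlap but with CSE-KO replicate 2 far below the others, and did not pass (adjusted p = 0.25). Mmp14, which activates pro-MMP2 at the cell surface, had 170, 207 and 148 at 3.90 kb inside the gene in CSE-KO, against 132, 118 and 133 in WT, without overlap (adjusted p = 0.14). Mmp17 had 139, 219 and 253 at its promoter in CSE-KO and 270, 189 and 211 in WT, and Mmp24 had 23, 35 and 13 in CSE-KO and 33, 22 and 41 in WT. Both overlapped.

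Of the other MMPs, Mmp28, epilysin, had 152, 139 and 244 at its promoter in CSE-KO, against 119, 108 and 112 in WT, without overlap and without passing (log2 change 0.61, adjusted p = 0.12). Its strongest distal region, 4.29 kb upstream, had 106, 89 and 85 in CSE-KO and 119, 100 and 103 in WT. Mmp11, stromelysin 3, had 42, 63 and 46 in CSE-KO, against 32, 35 and 38 in WT, at a region counted as its promoter that lies at -3401 bp from its start site in RefSeq, inside the gene Chchd10 (adjusted p = 0.13). Mmp13, a collagenase, had 106, 107 and 92 at 10.6 kb upstream in CSE-KO, against 74, 74 and 58 in WT, without overlap (log2 change 0.57, adjusted p = 0.069). At the Mmp13 promoter the values were 33, 6 and 21 in CSE-KO and 10, 21 and 10 in WT, with overlap (adjusted p = 0.73). The Mmp13 promoter window is shown as the MMP window with an AP-1 match. Here 165 of the 300 bases lay in a region of the table, and the only match, in capitals, is the AP-1 one.
Mmp13 promoter, chr9:7272264-7272563, plus strand: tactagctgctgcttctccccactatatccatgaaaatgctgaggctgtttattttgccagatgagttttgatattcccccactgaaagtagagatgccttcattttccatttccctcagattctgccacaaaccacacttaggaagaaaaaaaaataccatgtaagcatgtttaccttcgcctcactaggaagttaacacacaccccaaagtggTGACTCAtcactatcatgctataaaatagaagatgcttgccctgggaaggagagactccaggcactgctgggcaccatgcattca

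The inhibitors were represented by Timp1, Timp2 and Timp3, and their 3 promoters did not pass the limma test, nor was any at an unadjusted p under 0.05. The Timp1 promoter had 80, 116 and 85 in CSE-KO libraries, against 68, 90 and 84 in WT libraries, with overlap (log2 change 0.20, 95% interval -0.29 to 0.70, adjusted p = 0.54). Timp1 codes for a secreted inhibitor of most MMPs and lies inside the gene Syn1. The Timp3 promoter had 82, 132 and 98 in CSE-KO, against 77, 75 and 117 in WT, also with overlap (log2 change 0.21, 95% interval -0.39 to 0.82, adjusted p = 0.60). Timp2, whose product both blocks MMPs and takes part in the activation of pro-MMP2, had 114, 116 and 72 in CSE-KO, against 138, 119 and 208 in WT. All Timp2 values in CSE-KO lay below those in WT, and the difference passed, among the alternatives run, only under limma with trend and robust (log2 change -0.61 ± 0.29 SE, adjusted p = 0.18, against 0.037 under that setting).

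The windows at the start sites of Timp1 and Timp3 are shown as windows of inhibitor genes whose promoters did not pass, without (Timp1) and with (Timp3) called distal regions. All 300 bases of the Timp1 window and 13 of the Timp3 window lay in a region of the table, since the open region of Timp3 begins just past its start site and runs into the gene. Capitals mark GC boxes read on the other strand (GGGCGG), 1 at Timp1 and 2 at Timp3.
Timp1 promoter, chrX:20869916-20870215, plus strand: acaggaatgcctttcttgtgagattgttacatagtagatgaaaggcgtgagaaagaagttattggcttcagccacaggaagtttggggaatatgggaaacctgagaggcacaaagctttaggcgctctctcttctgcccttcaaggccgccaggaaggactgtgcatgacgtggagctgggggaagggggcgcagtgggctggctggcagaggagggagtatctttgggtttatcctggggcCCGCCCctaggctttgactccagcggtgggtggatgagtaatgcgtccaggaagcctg
Timp3 promoter, chr10:86300162-86300461, plus strand: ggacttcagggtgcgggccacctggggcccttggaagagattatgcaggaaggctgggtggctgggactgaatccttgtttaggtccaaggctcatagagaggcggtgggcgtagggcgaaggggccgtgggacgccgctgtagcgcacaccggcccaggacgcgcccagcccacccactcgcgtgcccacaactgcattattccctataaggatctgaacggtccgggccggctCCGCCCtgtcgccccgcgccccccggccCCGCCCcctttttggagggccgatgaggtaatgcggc

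Distal regions of Timp1 and Timp2 did not pass. Timp1 had a single distal region, 21.6 kb upstream inside the gene Araf, with 38, 60 and 85 in CSE-KO and 58, 59 and 62 in WT. Timp2 had 188, 165 and 192 at 7.57 kb upstream in CSE-KO, against 243, 237 and 242 in WT, without overlap (adjusted p = 0.11, and 0.029 under limma with trend and robust). At 9.56 kb upstream it had 126, 118 and 189 in CSE-KO and 165, 154 and 171 in WT.

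All 6 distal calls of the family were at Timp3, which codes for the TIMP that is bound to the matrix and blocks ADAM17 and aggrecanases as well as MMPs. It lies inside the gene Syn3 on the other strand, and its 14 regions spread over that gene, so a region placed with Timp3 may as well be counted with Syn3. Upstream, the region at 35.4 kb (chr10:86264712-86265330) had 98, 142 and 112 in CSE-KO libraries, against 35, 47 and 42 in WT libraries. This was 2.78-fold higher, with the lowest CSE-KO value above the highest WT value by a wide margin (log2 change 1.48 ± 0.21 SE, adjusted p = 0.0069). Inside Timp3, the region at 10.3 kb had 119, 113 and 126 in CSE-KO, against 86, 78 and 60 in WT, 1.61-fold higher (adjusted p = 0.048).

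Further downstream of the Timp3 start site, 4 regions were lower in CSE-KO. At 25.3 kb the values were 52, 47 and 48 in CSE-KO, against 67, 79 and 75 in WT, 1.49-fold lower (adjusted p = 0.048). At 41.5 kb they were 16, 34 and 18 in CSE-KO, against 86, 79 and 60 in WT, 3.35-fold lower (adjusted p = 0.012). At 46.1 kb (chr10:86346281-86346643) they were 26, 29 and 20 in CSE-KO, against 72, 91 and 91 in WT, 3.31-fold lower (adjusted p = 0.0045). The groups did not overlap at any of the 3. At 68.7 kb (chr10:86368871-86369207), in Syn3 beyond the end of Timp3, they were 11, 12 and 18 in CSE-KO, against 36, 43 and 37 in WT, 2.75-fold lower (adjusted p = 0.0082). Between these, the strong region at 39.6 kb had 106, 93 and 133 in CSE-KO, against 114, 144 and 136 in WT and overlapped, as did the region 26.5 kb upstream with 127, 121 and 139 in CSE-KO and 133, 148 and 159 in WT. The calls at 35.4 kb upstream, 46.1 kb and 68.7 kb held in all 6 fits that left out a library. The call at 41.5 kb was lost when WT replicate 1 or 2 was left out (adjusted p = 0.054 and 0.052), and those at 10.3 kb and 25.3 kb when any single library was left out (adjusted p from 0.061 to 0.16), that at 25.3 kb also under limma with trend and robust (adjusted p = 0.051).

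The 151 member regions that did not pass had a median log2 change of 0.05. The 30 genes without a call at a member region were Adam3, Adam5, Adam8, Adam10, Adam11, Adam15, Adam17 and Adam18, the proteases Adamts4, Adamts5, Adamts6, Adamts7, Adamts8, Adamts14, Adamts15 and Adamts18, then Adamtsl1, Adamtsl3 and Adamtsl5, then Mmp8, Mmp11, Mmp13, Mmp14, Mmp17, Mmp19, Mmp24, Mmp25 and Mmp28, and Timp1 and Timp2. The next 2 regions were chosen after their values were seen, since they missed the threshold by the least. The promoter region of Adamts6 at 0.584 kb had 106, 97 and 130 in CSE-KO libraries, against 48, 83 and 45 in WT libraries (log2 change 0.95 ± 0.27 SE, adjusted p = 0.051). The region of Adamts15 at 25.5 kb had 25, 38 and 38 in CSE-KO, against 17, 22 and 18 in WT (log2 change 0.78 ± 0.22 SE, adjusted p = 0.053). Both were higher in all 3 CSE-KO libraries than in any WT library. The Adamts6 region passed with a pseudocount of 5, with a mean of at least 20, under cyclic loess scaling, under limma with trend and robust and without WT replicate 2 (adjusted p from 0.0034 to 0.048), and the Adamts15 region with that pseudocount, with that filter and without CSE-KO replicate 1 (adjusted p from 0.025 to 0.047). Under limma with trend and robust, regions named above as not passing did pass at Adam12 (5.09 kb upstream), Adamts7 (35.5 kb), Mmp13, Mmp14 and the promoter of Mmp28 (adjusted p from 0.0086 to 0.048). Mmp8, the collagenase of neutrophils, had 4 distal regions with a median log2 change of -0.59, at 2 of which CSE-KO replicate 2 stood at 3.

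The rule leaves out 64 regions that lie in the body of a gene of these families. By the rule they go to another gene, to none beyond 100 kb, or to a deposited gene that carries no symbol. These were looked at after the member values were seen, and of them 9 were higher and 1 was lower in CSE-KO, against 7.7% higher and 9.6% lower of all tested regions. Deep in Adamts6, a gene related to Adamts10, a region had 114, 172 and 131 in CSE-KO libraries, against 34, 38 and 50 in WT libraries (chr13:104448345-104448934, log2 change 1.75, adjusted p = 0.0059). In Adamtsl1 a region had 57, 54 and 36 in CSE-KO, against 9, 22 and 9 in WT (log2 change 1.89, adjusted p = 0.017). In Adam28 the values were 36, 47 and 44 in CSE-KO, against 21, 18 and 10 in WT (log2 change 1.37, adjusted p = 0.02). Adam12, with lower calls alone among its member regions, held a higher region far inside the gene, with 95, 124 and 84 in CSE-KO and 56, 45 and 59 in WT (log2 change 0.90, adjusted p = 0.029). The Adamts6 call held in all 6 fits that left out a library. That of Adamtsl1 ended without WT replicate 1 or 3, that of Adam28 without WT replicate 2 or CSE-KO replicate 2, and that of Adam12 when any WT replicate or CSE-KO replicate 1 or 2 was left out (adjusted p from 0.0504 to 0.11).

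Near the limits of the rule, the member farthest from its start site is the Adamts17 region at 93.7 kb. Just beyond 100 kb, Adamts15 had 25, 43 and 25 at 101 kb in CSE-KO and 55, 71 and 74 in WT, and Adam12 had 109, 87 and 85 at 104 kb in CSE-KO and 96, 106 and 78 in WT. Just inside the promoter limit, Adamts10 had 11, 8 and 0 at 0.962 kb in CSE-KO and 12, 10 and 14 in WT, and Adamts3 had 7, 12 and 7 at 0.959 kb in CSE-KO and 11, 9 and 11 in WT. Just outside it, at 1.38 kb, Adamts14 had 16, 11 and 23 in CSE-KO and 14, 13 and 21 in WT, and the next include the called regions of Adam19 and Mmp27 at 1.59 kb and 1.58 kb.

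Genes that work with the metalloproteinases were described by counts, to be read against the 17.3% of all tested regions that passed (7.7% higher and 9.6% lower). The region named from each list is the one with the smallest adjusted p. Of 74 tested regions of partners and regulators of ADAM proteases, 4 were higher and 9 lower (17.6%). Tspan14, a tetraspanin that carries ADAM10 to the cell surface, had 46, 75 and 56 at 7.43 kb in CSE-KO libraries, against 236, 205 and 194 in WT libraries, 3.60-fold lower (adjusted p = 0.0046). Of 133 regions of membrane proteins that are shed, 10 were higher and 21 lower (23.3%). Notch1, a receptor, had 98, 72 and 74 at 25.6 kb in CSE-KO, against 235, 247 and 208 in WT (2.83-fold lower, adjusted p = 0.0053). Of 131 regions of matrix proteins that these enzymes cut or bind, 4 were higher and 21 lower (19.1%). Hspg2, which codes for perlecan, a proteoglycan of the basement membrane, had 57, 60 and 62 at 1.34 kb in CSE-KO, against 239, 193 and 218 in WT, 3.58-fold lower (adjusted p = 0.0027). The groups stood far apart at these 3 regions. Of 51 regions of the plasminogen system, which activates MMPs, 8 were higher and 5 lower (25.5%). Plau, which codes for urokinase, had 57, 64 and 61 at 2.30 kb in CSE-KO, against 22, 29 and 24 in WT, 2.38-fold higher (adjusted p = 0.0066). Of 40 regions of other metalloproteinases and inhibitors, 4 were higher and 2 lower (15.0%), with a region of the peptidase gene Nln at 43.8 kb at 39, 31 and 43 in CSE-KO and 7, 9 and 8 in WT (4.28-fold higher, adjusted p = 0.0028). These 5 named calls held in all 6 fits that left out a library. The medians of the lists were -0.08, -0.11, -0.22, -0.07 and 0.18 in the order given, against -0.0041 over all tested regions.

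The libraries were checked against marker genes. Of 15 endothelial markers, 14 had regions, 83 in all, with 5 higher and 19 lower, against 7.7% and 9.6% of all tested regions, and summed values of 6885 to 7336 in CSE-KO, against 8499 to 8983 in WT. Mural and fibroblast markers had 27 regions at 9 of 16 genes, 1 higher and 3 lower, with sums of 1225 to 1306 in CSE-KO and 1288 to 1326 in WT. Lung epithelial and mesothelial markers had 41 regions at 10 of 17 genes, 5 higher and 3 lower, with sums of 2553 to 2777 in CSE-KO and 2842 to 2962 in WT. Leukocyte markers had 12 regions at 6 of 17 genes, none higher and 1 lower, with sums of 582 to 615 in CSE-KO and 721 to 742 in WT. Ptprc, Sftpc, Des and Pecam1 had no region. The endothelial, the lung epithelial and mesothelial and the leukocyte sums were lower in CSE-KO without overlap, while the mural and fibroblast sums overlapped. The distal sums of the members and of all regions were also lower without overlap. The promoter regions of the endothelial markers, taken by themselves, went the other way, with sums of 1591 to 1739 in CSE-KO, against 1374 to 1482 in WT, as did those of the mural and fibroblast markers, with 254 to 281 in CSE-KO, against 198 to 204 in WT. Leukocyte promoters stayed lower, with 175 to 186 in CSE-KO, against 247 to 284 in WT, at only 2 regions. Lung epithelial and mesothelial promoters overlapped, with 152 to 221 in CSE-KO and 172 to 208 in WT. Summed over all promoters, the CSE-KO mean was 105.9% of the WT mean. The part of these in the member changes was not tested. By estimate, the CSE-KO libraries rested on fewer reads in regions, 3330000 to 3620000, against 6780000 and 9240000 in WT replicates 1 and 2. The residual SD of the CSE-KO libraries was 0.481 on the log2 scale, against 0.306 in WT. The part of depth in the calls was not tested.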

How the data were processed

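The submitters' processing notes name Trimmomatic 0.39 and STAR 2.7.3a, and further Picard 3.1.1 and DESeq2 1.26.0, with the build mm10. The sources used here do not say which program called the peaks, or whether read ends were shifted for Tn5. The table was deposited with whole numbers that were taken as a score, not as raw counts, because its columns sum to much the same total, 5437296, 5547417 and 5536256 in CSE-KO and 5368491, 5264443 and 5242490 in WT, and because values up to 100 skip 39, 35 and 39 whole numbers in the CSE-KO columns, marks of counts divided by a factor and rounded. No test for raw counts was therefore run. Reads were estimated from the spacing of low values, which gave no estimate for WT replicate 3. The CSE-KO values rest on fewer reads and are less precise.

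All 58129 regions whose mean over the 6 libraries reached 5 were tested with limma 3.58.1 (R 4.3.3) on log2(value + 1) without trend or robust. Differences are CSE-KO minus WT, and p-values were adjusted by Benjamini-Hochberg over the whole table. Fold changes are on the same scale and understate changes of weak regions. The script was tested on simulated data. Of 21839 regions with a deposited gene, 15754 carry a symbol. A further 24624 were placed by distance to 12616 genes, and 11709 had no gene. Distances are from the start site in the table to the centre of a region, and coordinates are as deposited.

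Groups and replicate numbers came from the sample titles. Values are named for every Timp promoter, every called region, the 6 strongest promoters and 3 strongest uncalled distal regions of each family, and the called region with the smallest adjusted p in each list of related genes. Members and lists were chosen with earlier results of these data known. Alternatives changed the pseudocount, the filter, the scaling, the variance model, the promoter limit, the assignment and the libraries.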

Additional observations from a re-analysis of the deposited data

How the results depend on the processing

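Over all regions, 10057 passed, against 15448 under limma with trend and robust and 3493 to 8918 when 1 library was left out. The 39 member calls became 13 to 36 when 1 library was left out and 6 with the deposited annotation alone. The 38 distal calls became 13 to 34 when 1 library was left out and 5 with the deposited annotation alone. The single promoter call became 2 with a pseudocount of 5, with a mean of at least 20, under cyclic loess scaling and by the RefSeq start site, 4 within 2.5 kb, 5 under limma with trend and robust, and 0 to 4 when 1 library was left out. The promoter counts rest on few regions, and the RefSeq alternatives were chosen after seeing the data. Pseudocounts of 0.5 and 5, no filter, a mean of at least 20, both other scalings, limma with trend and robust and leaving out regions over 10000 gave 38 to 50 member calls, and no called region changed sign under any alternative run. The libraries of CSE-KO and WT share replicate numbers, but same-numbered libraries did not deviate together (correlations of -0.00593, -0.0105 and 0.0105). With the replicate number as a block, 22 member regions passed, 21 of them distal, against 6013 over all regions. Without CSE-KO replicate 1, 2 or 3, 9, 10 and 11 of the 39 calls were lost, and without WT replicate 1, 2 or 3, 26, 25 and 25. CSE-KO libraries, with fewer estimated reads, had the larger residual SD.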
